A study of Mus musculus with 8 samples.

Results

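The genes described here are 33 mouse genes for factors that start and extend protein synthesis on the ribosome. They were chosen by gene symbol and not by a measured value, though with earlier results of these data known. All 33 were found among the 37991 gene identifiers of the deposited count table. They fall into 5 roles, with 5 genes of the ternary complex and start codon step, 12 subunits of eIF3, 9 genes of cap binding and scanning, 1 gene of subunit joining (Eif5b) and 6 genes of elongation. RNA was sequenced from Flt3- LSK cells, sorted from bone marrow, a fraction in which haematopoietic stem cells and early progenitors are found. All mice were of strain C57BL/6J. The WT group is given as wild type and as Runx1f/f, a floxed and so undeleted Runx1, and the Mut group is given as Runx1 deficient. The product of Runx1 is a transcription factor needed for blood formation. Each group had 2 samples of 24000 sorted cells, and each sample, by its name, gave a library of polyA-selected RNA (here mRNA library) and one of total RNA, 8 libraries in all. The labels used here do not give the part of Runx1 that was deleted, the promoter that drove any recombinase, the age or sex of the mice, or whether 2 samples of 1 group were taken from separate animals. P-values therefore reflect no more than the spread between the samples at hand, part or all of which may be technical.

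Translation begins when a ternary complex of eIF2, GTP and the initiator tRNA joins the small ribosomal subunit with eIF1, eIF5 and the large eIF3 complex. The cap-binding protein eIF4E, the scaffold eIF4G and the helicase eIF4A bring this assembly to the capped end of an mRNA, eIF5B then joins the large subunit, and eEF1 and eEF2 carry tRNA and ribosome through each elongation step. Many mRNAs of ribosomal proteins and elongation factors start with a C and a run of pyrimidines, the TOP motif, through which mTORC1 signalling controls their translation. Haematopoietic stem cells are known for a low rate of protein synthesis compared with other marrow cells. The series title is about ribosome biogenesis, and the stated comparison is that of normal with Runx1-deficient stem cells.

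The starts of 5 genes are printed to show what such a pyrimidine run looks like. Eef2, counted as TOP in textbooks, is printed as a gene whose window held no full run. Each window runs from 10 bases before to 20 bases from the annotated start on, 30 bases in all, taken from RefSeq on build GRCm38.p6 in the sense direction. Capitals mark a C followed by at least 6 bases that are C or T.
Eif3f: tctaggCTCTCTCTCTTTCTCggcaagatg
Eif2s3x: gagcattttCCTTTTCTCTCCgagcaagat
Eef1a1: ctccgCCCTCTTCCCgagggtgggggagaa
Eif4b: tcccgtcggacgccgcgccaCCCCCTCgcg
Eef2: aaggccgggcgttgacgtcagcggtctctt
These windows lie at chr7:108934405-108934434 (plus strand), chrX:94212632-94212661 (minus strand), chr9:78481705-78481734 (minus strand), chr15:102073763-102073792 (plus strand) and chr10:81176621-81176650 (plus strand). The run was 15 bases long for Eif3f, 12 for Eif2s3x, 10 for Eef1a1 and 7 for Eif4b, and the window of Eef2 held none. The Eef2 window ends in a stretch of C and T, and whether that stretch goes on past the window was not looked at. A window was found for 25 of the 33 genes, with 31 starts, and the run was found for 7 of these 25 genes (28%), which also include Eif3k, Eif3l and the second start of Eif4e. Over the whole promoter table the run was found for 15.6% of 27025 genes and, counted by start, for 13.5% of 32851 starts against 22.6% of the members' starts. The run was sought on the sense strand alone and anywhere in the window, before or after the start. A match is a description of these letters and need not be a TOP motif. No window was given for Eif3e, Eif3h, Eif3i, Eif4ebp1, Eif4g2, Pabpc1, Eef1d and Eef1g.

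Levels are given as CPM, gene counts scaled to an equal library size of 1000000 after TMM scaling (edgeR's factor for library composition). The mRNA libraries held 35096252 to 37924699 gene counts. The total RNA libraries held 967694 to 1218437, next to ribosomal RNA (rRNA) with 93.33 to 94.53% of all counts. Runx1 itself was higher in the Mut-labelled libraries. The mRNA libraries held 198 and 209 CPM in WT against 750.1 and 941 CPM in Mut-labelled samples, 2.05 on the log2 scale (SE 0.18, edgeR adjusted p = 0.00753), and the total RNA libraries gave 1.88 (SE 0.16, edgeR adjusted p = 5.59e-07). Scaled by the ERCC spike-in, synthetic RNA added to the purified RNA, it stood at 1.73 and 0.78 (edgeR adjusted p = 0.999 and 0.257). This direction goes against the label, and a count over the whole gene does not check a deletion within it, so that the group is called Mut-labelled throughout and each direction rests on the label. Kit and Ly6a, which mark this fraction, and Cd34 had counts in all 8 libraries. Summed marker levels of other cell types moved with the groups or with single libraries. In mRNA libraries, in the order WT 1, WT 2, Mut-labelled 1 and Mut-labelled 2, the 8 megakaryocyte markers summed to 594, 537, 1853 and 1704 CPM, the 10 erythroid markers to 1256, 998, 385 and 262 CPM, the 11 neutrophil markers to 38.9, 47.6, 507 and 134 CPM, and the 9 B and plasma cell markers to 1158, 9696, 497 and 2166 CPM. The 7 mast cell and basophil markers summed to 155, 112, 549.9 and 692 CPM and the 9 T and NK cell markers to 96.5, 85.7, 37.3 and 36.0 CPM in the same order. None of these markers was at 0 in all mRNA libraries, and Ms4a1, a B cell marker, was at 0 in the total RNA libraries. Their part in the values that follow was not tested, and fewer cells of a type and less RNA per cell cannot be told apart.

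In the mRNA libraries, none of the 33 translation factor genes passed the main test between the groups, which leaves out the replicate number. All 33 passed edgeR's filter on low counts, and 0 were called at an adjusted p under 0.05, against 3.64% of 17128 genes tested. At an unadjusted p under 0.05 there were again 0, against 15.7% of all genes, and DESeq2 called 0, against 7.78% of the genes it tested. The log2 fold changes of Mut-labelled over WT ran from -0.32 (Eif3g, a subunit of eIF3) to 0.20 (Eif5b), with a median of -0.07 against -0.01 over all genes. They were negative for 21 and positive for 12 members, and the median turned to 0.04 when WT replicate 1 was left out and to 0.01 when Mut-labelled replicate 2 was. The median standard error of these differences was 0.17 on the same scale. With the replicate number as a block it was 0.08, and 2 members were called, Eif3g and Eif3i, against 16.8% of all genes.

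In the total RNA libraries the members again gave 0 calls, against 4.23% of 10546 genes tested, and 0 at an unadjusted p under 0.05, against 14.8% of all genes. DESeq2 called 0 there, against 1.33% of the genes it tested. It had 1 member at an unadjusted p under 0.05, where its share over all genes was not counted. The log2 fold changes ran from -0.38 (Eif2s3x) to 0.41 (Eif3m), with a median of -0.11 against a median of all genes of -0.002, and 25 were negative and 8 positive. Leaving out WT replicate 2 moved this median to -0.17 and leaving out Mut-labelled replicate 2 moved it to -0.04. Over all genes 50.2% were negative there and 51.4% in the mRNA libraries. The difference had the same sign in both kinds of library for 23 members, 18 negative and 5 positive, but the libraries of both kinds came from the same sorted samples and are not independent.

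The intervals show how large a difference these 4 libraries of a kind could still hold. Under TMM scaling, the 95% confidence interval lay within a 2-fold change for all 33 members in the mRNA libraries and for 31 in total RNA. It lay within a 1.5-fold change for 23 and 19 members, and within a 1.25-fold change for 0 and 2. The lowest and the highest limit were -0.86 (Eif4e) and 0.60 (Eef1a1) in mRNA libraries, and -1.05 (Eif2s3x) and 1.20 (Eif3m) in total RNA libraries. These limits hold relative to other genes, under TMM. With ERCC scaling the members' median standard error was 1.05 in mRNA and 0.61 in total RNA libraries, against 0.17 in both under TMM. Their median difference was then -1.17 in total RNA libraries, itself beyond 2-fold. A missed threshold therefore does not show equal levels.

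**Figure D1:**
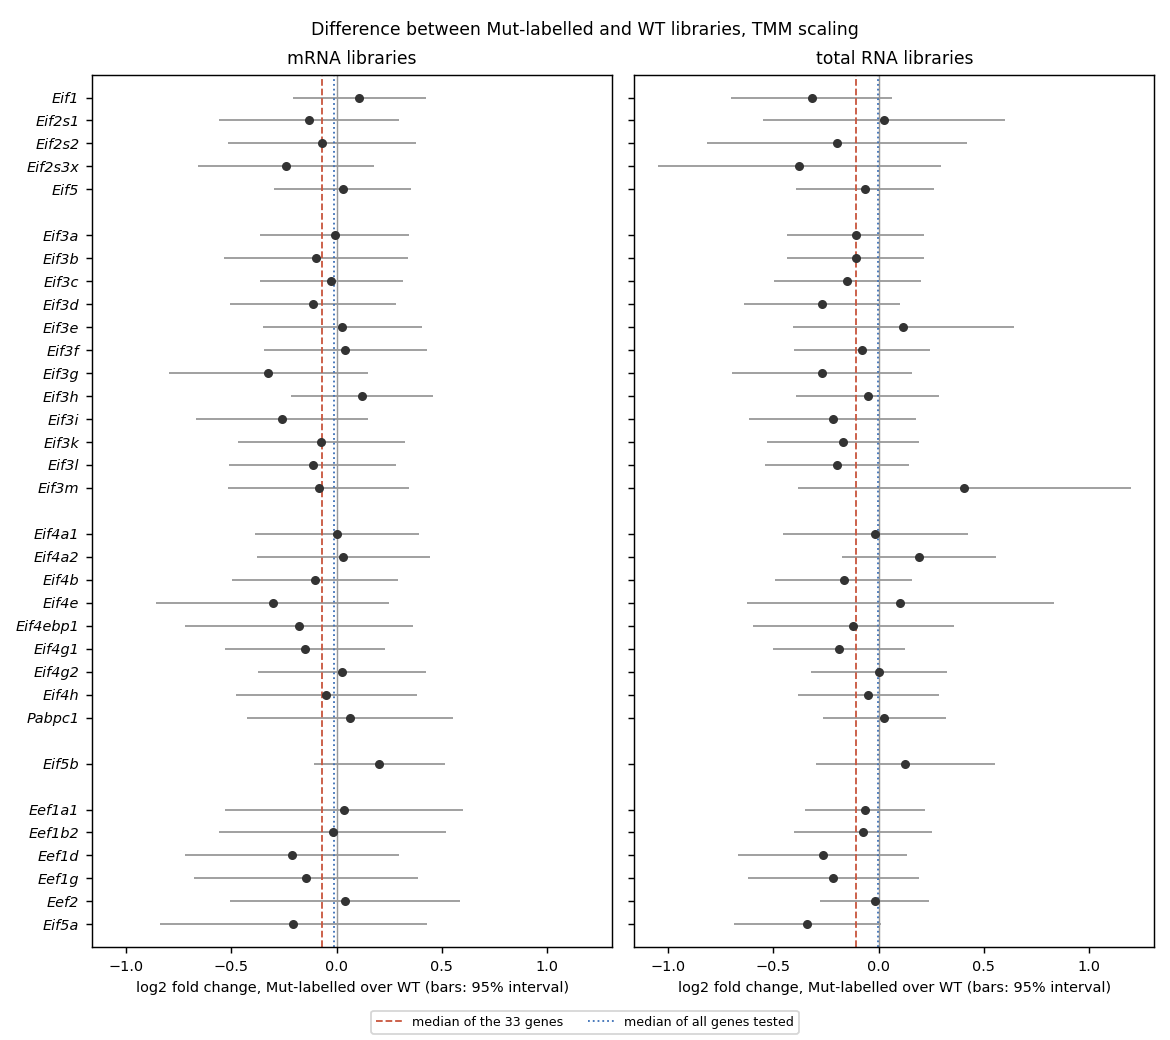
Log2 fold change of Mut-labelled over WT libraries for each of the 33 genes (horizontal axis), with its 95% confidence interval as a bar, in mRNA (left) and total RNA libraries (right) under TMM scaling. The dashed line is the median of the 33 genes and the dotted line that of all genes tested. Points run from -0.32 to 0.20 on the left and from -0.38 to 0.41 on the right, and the bars of all 33 genes cross 0 in both panels.

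Of the ternary complex and start codon genes, Eif5 had the most counts. Eif5, which makes eIF2 hydrolyse its GTP at the start codon, stood at 305 and 317 CPM in WT against 307 and 329 CPM in Mut-labelled mRNA libraries. The groups overlapped, and the log2 fold change was 0.03 (SE 0.13, edgeR adjusted p = 0.961). Eif1, which keeps the scanning ribosome from stopping at wrong codons, stood at 127 and 127 CPM in WT against 146 and 129 CPM in Mut-labelled mRNA libraries, 0.11 on the log2 scale (SE 0.13, edgeR adjusted p = 0.813). Its total RNA libraries lay the other way, at 160.3 and 139 CPM in WT against 104 and 134 CPM in Mut-labelled libraries, -0.32 on the log2 scale (SE 0.18, edgeR adjusted p = 0.464). The groups did not overlap in either kind, in opposite directions, and the test of the difference between the kinds did not pass (edgeR interaction adjusted p = 0.99995).

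Eif2s3x, which encodes the GTP-binding subunit of eIF2, was the member of this role whose Mut-labelled libraries lay below both WT libraries in either kind. It stood at 40.4 and 34.4 CPM in WT against 33.1 and 30.4 CPM in Mut-labelled mRNA libraries (log2 fold change -0.24, SE 0.17, edgeR adjusted p = 0.628), and at 27.8 and 32.5 CPM against 23.0 and 23.1 CPM in total RNA libraries (-0.38, SE 0.32, edgeR adjusted p = 0.675). The total RNA values rest on 22 to 33 counts per library. Its paralog on the Y chromosome, Eif2s3y, had 0 counts in all 8 libraries, which allows at most 3 counts, or 0.0784 to 0.0859 CPM in the mRNA and 2.47 to 3.14 CPM in the total RNA libraries. The other eIF2 subunits, Eif2s1 (alpha, the subunit that stress kinases phosphorylate) and Eif2s2 (beta), had log2 fold changes of -0.13 and -0.07 in mRNA libraries and 0.03 and -0.20 in total RNA libraries.

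The 12 subunits of eIF3, the scaffold that holds the other factors on the small subunit, had a median log2 fold change of -0.08 in mRNA and -0.13 in total RNA libraries. Of these 12, 9 were negative in the mRNA and 10 in the total RNA libraries, and 0 were called in the main fit. With the replicate number as a block, Eif3g and Eif3i were called in mRNA libraries (edgeR adjusted p = 0.0156 and 0.0297). So were 16.8% of all genes. Eif3g stood at 203 and 151 CPM in WT against 154 and 129 CPM in Mut-labelled mRNA libraries, -0.32 on the log2 scale (SE 0.19, edgeR adjusted p = 0.536). Its groups overlapped, since Mut-labelled replicate 1 lay above WT replicate 2. Eif3i stood at 206 and 176 CPM in WT against 177 and 143 CPM in Mut-labelled mRNA libraries (-0.26, SE 0.17, edgeR adjusted p = 0.58). Both encode subunits that sit in a peripheral module of the complex with Eif3b.

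Eif3h, a subunit outside the part of eIF3 that budding yeast also has, lay the other way in the mRNA libraries, at 278 and 257 CPM in WT against 304 and 279 CPM in Mut-labelled libraries. Both Mut-labelled values lay above WT, the lower of them barely, and the log2 fold change was 0.12 (SE 0.14, edgeR adjusted p = 0.802), with -0.05 in total RNA libraries. Eif3f, whose start holds the longest pyrimidine run printed above, stood at 431 and 372 CPM in WT against 438 and 391 CPM in Mut-labelled mRNA libraries (0.04, SE 0.16, edgeR adjusted p = 0.952). Eif3a, the largest subunit and the one with the most counts, stood at 563 and 574 CPM in WT against 552 and 580.0 CPM in Mut-labelled mRNA libraries (-0.01, SE 0.14, edgeR adjusted p = 0.991). The subunits spanned a wide range of levels. Their means over the 4 mRNA libraries, per kilobase of exon, ran from 9.35 (Eif3m) to 173 (Eif3h) CPM per kilobase. The length counts all annotated exons of a gene joined. For Eif3m it was 2590 bases against 1283 in its longest coding transcript, and for Eif3h 1612 against 1295. Eif3m also has a near-identical copy, described below. The range therefore depends in part on the annotation.

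Among the cap-binding and scanning genes, the median log2 fold change was -0.05 in mRNA and -0.02 in total RNA libraries, and 0 of 9 were called. Eif4e, which binds the cap, stood at 70.7 and 51.7 CPM in WT against 57.2 and 42.3 CPM in Mut-labelled mRNA libraries (-0.30, SE 0.22, edgeR adjusted p = 0.648). In each group replicate 2 was the lower. Eif4e in total RNA stood at 54.7 and 20.7 CPM in WT, from 57 and 21 counts, and at 44.0 and 37.1 CPM in Mut-labelled libraries, so that both Mut-labelled values lay between the WT values (0.10, SE 0.35, edgeR adjusted p = 0.945). Leaving out either WT library set its sign, with 0.97 when replicate 1 and -0.42 when replicate 2 was left out. Eif4ebp1, whose protein blocks eIF4E until mTORC1 phosphorylates it, had log2 fold changes of -0.18 and -0.12. Pabpc1, the polyA-binding protein and the most abundant of this role, stood at 2293 and 2469.8 CPM in WT against 2378 and 2603 CPM in Mut-labelled mRNA libraries (0.06, SE 0.20, edgeR adjusted p = 0.943).

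The scaffold genes Eif4g1 and Eif4g2 differed from each other in the sign of the mRNA difference. Eif4g1 stood at 865 and 859.5 CPM in WT against 787 and 771 CPM in Mut-labelled mRNA libraries (-0.15, SE 0.15, edgeR adjusted p = 0.776), and its Mut-labelled libraries also lay below WT in total RNA, at 669.7 and 671 against 787 and 751 CPM. Eif4g2, a relative that lacks the eIF4E-binding part, stood at 1024 and 1049 against 1044 and 1072 CPM in mRNA libraries (0.03, SE 0.16, edgeR adjusted p = 0.972). A ratio of counts within a library needs no scaling. The log2 ratio of Eif4g2 to Eif4g1 was 0.24 and 0.29 in WT and 0.41 and 0.48 in Mut-labelled mRNA libraries, and 0.11 and -0.06 against 0.22 and 0.22 in total RNA libraries. It was higher in both Mut-labelled samples in either kind, by 0.18 and 0.19. The exact two-sided permutation test gave p = 0.333, the smallest that 2 against 2 samples allow, and 0.8 after Benjamini-Hochberg adjustment over the 6 ratios. Of the 6 ratios fixed, 3 did not overlap between the groups in mRNA libraries, the others being Eif4ebp1 to Eif4e and Eif5b to Eif5. In total RNA libraries only that of Eif4g2 to Eif4g1 did not overlap. For levels of single genes, the groups did not overlap for 44.8% of all genes in mRNA and 44% in total RNA libraries. A share over ratios of other genes was not counted.

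The helicase Eif4a1 had log2 fold changes of 0.002 in mRNA and -0.02 in total RNA libraries and its paralog Eif4a2 of 0.03 and 0.19. Their helper Eif4b, whose Mut-labelled libraries lay below WT in both kinds, had -0.10 and -0.17, and Eif4h, a related helper, had -0.05 in both. Eif5b, the GTPase of subunit joining, stood at 127 and 140.2 CPM in WT against 149 and 159 CPM in Mut-labelled mRNA libraries. Both Mut-labelled libraries lay above WT (0.20, SE 0.13, edgeR adjusted p = 0.565), but in total RNA libraries the Mut-labelled values of 114 and 133 CPM lay between the WT values of 136 and 91.7 CPM (0.13, SE 0.20, edgeR adjusted p = 0.856).

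Of the 5 roles, the 6 elongation genes took the largest share of the counts of the 33, with 49.4% in mRNA and 49.9% in total RNA libraries. Eef2, the GTPase that moves the ribosome along the mRNA, stood at 4509 and 4608 CPM in WT against 4647 and 4745 CPM in Mut-labelled mRNA libraries (0.04, SE 0.22, edgeR adjusted p = 0.97), and at 4198 and 3977 against 4016 and 3992 CPM in total RNA libraries (-0.02, SE 0.12, edgeR adjusted p = 0.972). Eef1a1, which delivers the aminoacyl-tRNA, stood at 3761 and 3199.7 against 3828 and 3331 CPM in mRNA libraries (0.04, SE 0.23, edgeR adjusted p = 0.973). The groups of Eef1a1 overlapped, and both Mut-labelled libraries of Eef2 lay above WT in mRNA and between the WT values in total RNA. Eef1d, a subunit of the exchange factor that recharges eEF1A with GTP, stood at 172 and 138 against 156 and 112 CPM in mRNA libraries (-0.21, SE 0.21, edgeR adjusted p = 0.758), and the related subunits Eef1b2 and Eef1g had -0.02 and -0.15. All 6 were negative in total RNA, with a median of -0.15, and 4 of 6 in mRNA libraries, with a median of -0.08.

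Eif5a, the hypusine-bearing factor that helps ribosomes past difficult stretches, came closest to the threshold in the main fit. It stood at 781 and 733 CPM in WT against 679 and 510.2 CPM in Mut-labelled total RNA libraries. Both Mut-labelled libraries lay below WT, -0.34 on the log2 scale (SE 0.17, edgeR adjusted p = 0.356, unadjusted 0.0562). In mRNA libraries it stood at 1280.2 and 945 CPM in WT against 1137 and 799 CPM in Mut-labelled libraries, so that the groups overlapped and replicate 2 was the lower in each (-0.21, SE 0.26, edgeR adjusted p = 0.823). It is described in full because of these values.

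**Figure D2:**
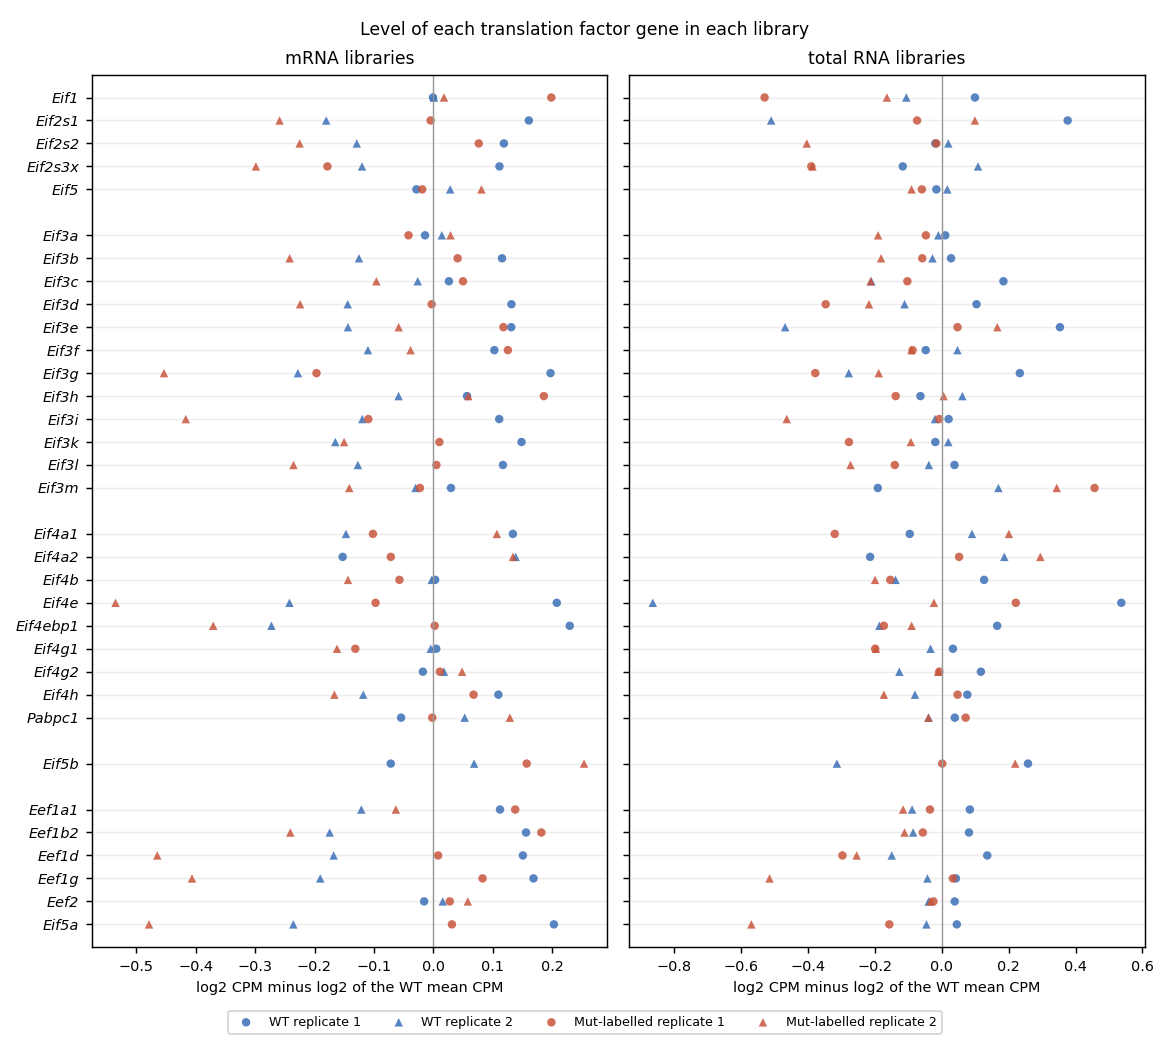
Level of each of the 33 genes in each library, as log2 CPM minus the log2 of the WT mean CPM (horizontal axis), in mRNA (left) and total RNA libraries (right). Circles are replicate 1 and triangles replicate 2, blue for WT and red for Mut-labelled. In the left panel the triangles lie left of the circles in both groups for 24 of the 33 genes.

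The groups did not overlap for 7 members in mRNA libraries, against 44.8% of all genes, and for 14 in total RNA libraries, against 44% of all genes. In mRNA libraries 3 of the 7 lay below WT (Eif2s3x, Eif4b and Eif4g1) and 4 above (Eif1, Eif3h, Eif5b and Eef2), against 23.1% and 21.7% of all genes. Of the 14 in total RNA, 13 lay below WT and Eif3m above, against 22.3% and 21.7% of all genes. The replicates differed in the mRNA libraries in a shared way, with replicate 2 below replicate 1 in both groups for 24 members and above it in both for 7. Over all genes 32.6% were lower in replicate 2 in both groups. The total RNA of replicate 2 was the lower in both groups for 15 members, against 26.4% of all genes. What the replicate number stands for is not given in the labels.

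As a share of all gene counts the 33 genes took 2.18 and 2.01% in WT and 2.11 and 1.96% in Mut-labelled mRNA libraries. The groups overlapped (exact two-sided permutation p = 0.667). The share in total RNA was 1.68 and 1.56% in WT and 1.53 and 1.48% in Mut-labelled libraries, lower in both Mut-labelled samples, at the smallest p that 2 against 2 allow (exact two-sided permutation p = 0.333). With the 50 genes of most counts left out of the total, the total RNA shares were 1.04 and 0.946% against 0.913 and 0.862%. Per 1000000 counts of 28S and 18S rRNA, the members gave 1036 and 901 counts in WT and 892 and 1051 counts in Mut-labelled libraries, which overlapped (exact two-sided permutation p = 1). By role, 3 were lower in both Mut-labelled total RNA libraries (exact two-sided permutation p = 0.333 for each). eIF3 took 0.260 and 0.245% of gene counts in WT and 0.230 and 0.223% in Mut-labelled libraries, elongation 0.839 and 0.780% against 0.769 and 0.737%, and the ternary complex and start codon genes 0.0525 and 0.0485% against 0.0430 and 0.0457%. The cap binding and scanning genes overlapped there (0.516 and 0.476% against 0.477 and 0.465%, exact two-sided permutation p = 0.667), and so did Eif5b (0.0137 and 0.00928% against 0.0113 and 0.0132%, exact two-sided permutation p = 1). In the mRNA libraries eIF3, elongation and the ternary complex overlapped between the groups (exact two-sided permutation p = 0.667 for each). Cap binding and scanning stood lower, at 0.663 and 0.661% against 0.640 and 0.643%, and Eif5b higher, at 0.0130 and 0.0141% against 0.0148 and 0.0156%, in both Mut-labelled libraries (exact two-sided permutation p = 0.333 for each).

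**Figure D3:**
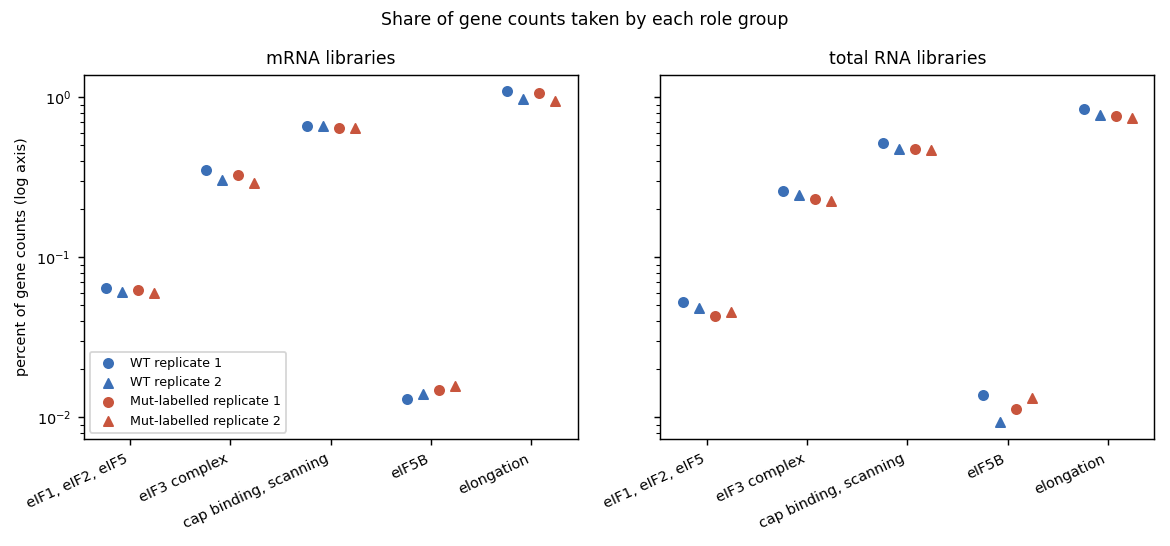
Percent of gene counts taken by the genes of each role (vertical axis, logarithmic) in each mRNA (left) and total RNA library (right). Each point is 1 library, with circles for replicate 1 and triangles for replicate 2, blue for WT and red for Mut-labelled. Elongation genes take the largest share, near 1% in mRNA libraries (0.952 to 1.09%), and Eif5b the smallest (0.013 to 0.0156% in mRNA libraries).

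Scaling by the ERCC spike-in in place of TMM moved all genes together. The median log2 fold change of all genes went from -0.01 to -0.38 in mRNA and from -0.002 to -1.10 in total RNA libraries, and that of the members to -0.42 and -1.17. All 33 members were then negative in both kinds, as were 82.0% and 97.6% of all genes. Relative to the median of all genes the members' median was -0.04 in mRNA and -0.07 in total RNA libraries, against -0.06 and -0.11 under TMM. Under ERCC scaling edgeR called 0 of 33 members in either kind, against 0.993% and 3.54% of all genes. In total RNA libraries 15 members had an unadjusted p under 0.05, next to 41 of the 94 further pathway genes tested, described below. In mRNA libraries there were 0 of either. The share over all genes at this unadjusted threshold was not counted, so that these counts do not set the members apart from other genes. The members' lowest edgeR adjusted p was 0.103 in total RNA libraries. The spike-in itself varied within groups. ERCC counts per 100 gene counts were 0.651 and 0.313 in WT and 0.891 and 0.381 in Mut-labelled mRNA libraries, and 0.414 and 0.564 against 0.772 and 1.36 in total RNA libraries. The members' counts per ERCC count were 4.06 and 2.77 in WT and 1.98 and 1.09 in Mut-labelled total RNA libraries, lower in both Mut-labelled samples, and 3.35 and 6.42 against 2.37 and 5.14 in mRNA libraries, which overlapped.

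**Figure D4:**
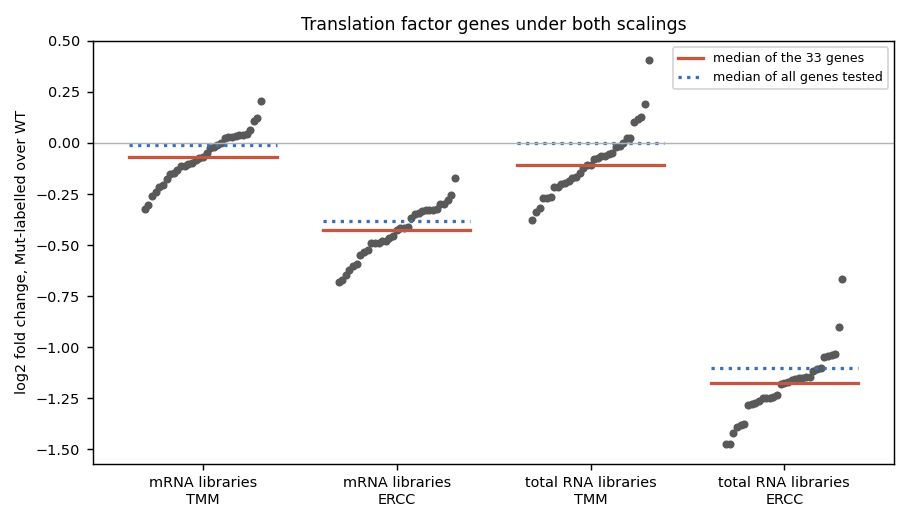
Log2 fold change of Mut-labelled over WT (vertical axis) for each of the 33 genes, sorted by value within each of 4 columns: mRNA and total RNA libraries under TMM and ERCC scaling. The solid line is the median of the 33 genes and the dotted line that of all genes tested. Both medians move together, from -0.07 and -0.01 to -0.42 and -0.38 in mRNA libraries.

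Members did pass the test between the kinds of library. Relative to other genes, 10 of 33 members (30.3%) were lower in total RNA than in mRNA libraries and 0 were higher, against 8.80% of all genes lower, 8.43% higher and 17.2% called in all. Each sorted sample gave a library of both kinds, and with the sample as a block 18 members (54.5%) were lower and 0 higher, against 16.1% of all genes lower and 28.6% called. The median was -0.25 on the log2 scale, against -0.05 over all genes and -0.15 over genes of at least 20 CPM, of which 16.6% were lower, and 31 of 33 members were negative. The genes that were lower in both fits were Eif4a2 (-0.77), Eif3e (-0.76), Eif2s1 (-0.56), Eif5a (-0.46), Eif4h (-0.45), Eef1b2 (-0.43), Eef1a1 (-0.41), Eif3h (-0.39), Eif3l (-0.34) and Eif5 (-0.33). Eif4a2 had an edgeR adjusted p of 0.00143 and Eif5a, the last to pass, one of 0.0447. Eef2 (-0.03), Eif4g1 (-0.02) and Eef1g (0.01) lay near 0, and Eif1 stood at 0.18 (SE 0.12, edgeR adjusted p = 0.315). With ERCC scaling 0 members were called in this comparison. At an unadjusted p under 0.05 there were 10 members, and 3891 among all genes. The median of the members was -0.90 against -0.77 over all genes.

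**Figure D5:**
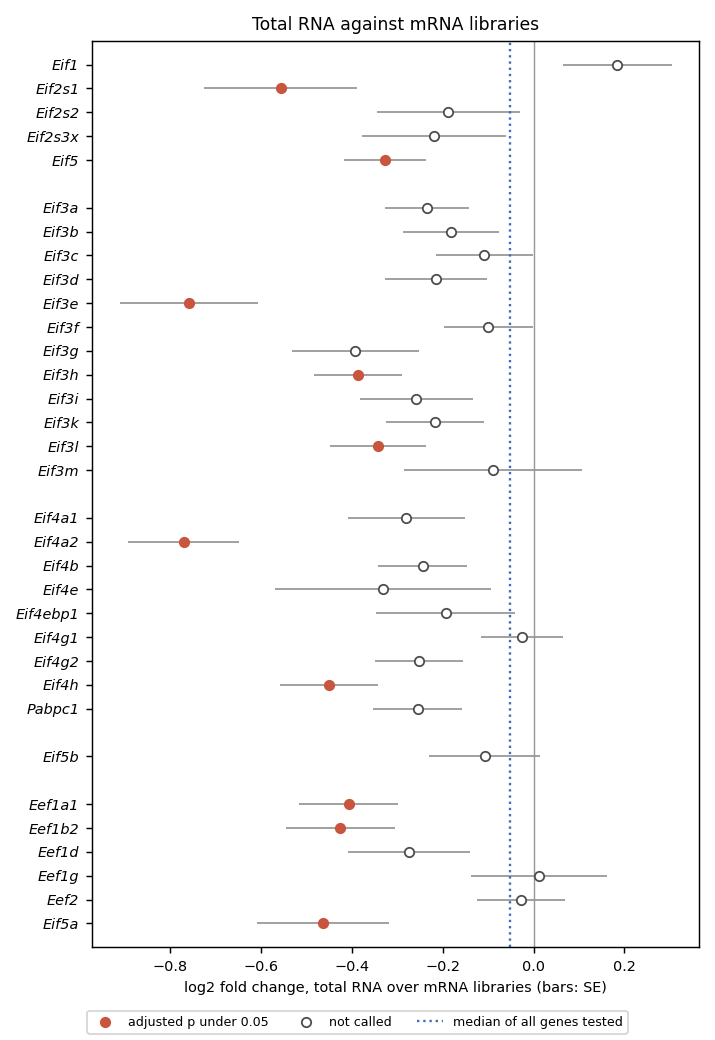
Log2 fold change of total RNA over mRNA libraries (horizontal axis) for each of the 33 genes, over all 8 libraries, with its SE as a bar. Filled points passed an adjusted p under 0.05 and open points did not, and the dotted line is the median of all genes tested. The points of 31 genes lie below 0, with Eif4a2 and Eif3e lowest at -0.77 and -0.76.

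No member passed the test of whether its difference between the groups depended on the kind of library. Of the 33 members 0 were called by edgeR (0 at an unadjusted p under 0.05), and of all 17416 genes also 0, or 0%, with 686 at an unadjusted p under 0.05. The smallest unadjusted value among the members was 0.117, that of Eif1.

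Levels between genes are compared per kilobase of exon (GENCODE M21), as a mean over the 4 mRNA libraries with their range. The length counts all annotated exons of a gene joined. It exceeds the longest coding transcript by amounts that differ between genes, as with 6719 against 1506 bases for Eif3e and 1612 against 1295 for Eif3h. The order of genes therefore depends in part on the annotation. Eef1a1 at 1416 (1283 to 1536) and Eef2 at 1392 (1357 to 1427) CPM per kilobase were the highest and overlapped in their range. Eif5a followed at 438, Pabpc1 at 373, Eef1b2 at 279.9 and Eif4b at 214. The lowest were Eif3m at 9.35, Eif4e at 9.23, Eif2s3x at 9.08 and Eif2s2 at 6.34 CPM per kilobase. Of the 32 neighbouring pairs in this order, 23 overlapped in mRNA libraries and 27 in total RNA libraries, where Eef2 came first at 1217 and Eef1a1 second at 952 CPM per kilobase. The cap-binding protein gene Eif4e thus ranked far below the scaffold genes Eif4g1 (112) and Eif4g2 (103) and below the gene of its inhibitor, Eif4ebp1 (38.3).

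Several of the lowest levels concern genes with near-identical copies. By sequence, 19 members have copies of at least 95% identity over at least 100 bases elsewhere among the GENCODE M21 transcripts and 14 have none, and for 12 members the count table lists pseudogene copies. The copy of Eif2s3x, Gm2223, held 16387 counts over the mRNA libraries against 5126 of the gene, that of Eif3m, Gm7658, 8809 against 3580, and that of Eif2s2, Gm9892, 7278 against 6325. For Eef1a1 the 3 copies held 218148 counts against 521174. How reads shared between a gene and its copy were counted is not given in the sources used here, so that the levels of these genes are uncertain. When the counts of the copies were added to those of the gene, 0 members were called in either comparison, against 3.65% of genes in mRNA and 3.99% in total RNA libraries. Eif3m in total RNA libraries turned from 0.41 to -0.25, Eif2s3x stood at -0.25 in mRNA and -0.24 in total RNA libraries, and Eif5a in total RNA libraries had an edgeR adjusted p of 0.342 (unadjusted 0.0499). Members without copies had medians of -0.08 in mRNA and -0.16 in total RNA libraries, and members with copies -0.02 and -0.05. Exons of Eif5b, Eif3m, Eif3d, Eif4a2 and Eef1b2 overlap a gene on the other strand (Rev1, Ccdc73, Gm17638, Rfc4 and Ndufs1), and those of Eef1d overlap Naprt on the same strand. Same-strand overlaps with annotated genes, several of them small RNAs, also exist for Eif5 (Snora28), Eif4a2 (Snora81 and Snord2 among others), Eif4g1 (Snord66), Eif4e (Mir1956), Eif4a1, Eif4g2, Eef1b2 and Eef1a1. Whether the counting used strand is not given, and such reads cannot be told apart.

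The 10 members counted here as TOP mRNAs from textbook knowledge (Eef1a1, Eef1b2, Eef1d, Eef1g, Eef2, Eif3e, Eif3f, Eif3h, Eif4b and Pabpc1) had a median log2 fold change of 0.03 in mRNA and -0.07 in total RNA libraries. The other 23 had -0.08 and -0.12. By the letters at the start, the 7 members with a pyrimidine run had medians of -0.10 and -0.17 and the 18 without one -0.04 and -0.09. The set with a run is not a set of TOP mRNAs, since the run may lie anywhere in the window. The medians of all these sets were negative in total RNA libraries, and 0 members of any of them were called in the main fit.

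Of 100 further genes of the pathway, 98 were tested in mRNA and 94 in total RNA libraries. In the main fit edgeR called 0 in either, against 3.64% and 4.23% of all genes. At an unadjusted p under 0.05 there were 7 and 12, against 15.7% and 14.8% of all genes. The median was -0.07 in mRNA and -0.09 in total RNA libraries. The 22 cytoplasmic tRNA synthetase genes, which charge tRNA with amino acids and here include 2 scaffold genes of their complex, were negative for 20 in mRNA (median -0.14) and 18 in total RNA libraries (median -0.20). Other initiation factors and paralogs had medians of -0.05 and 0.04, eIF2B with the eIF2 kinases and phosphatase 0.01 and 0.02, and mTORC1 and MNK signalling -0.04 and -0.03. Other elongation factors had -0.10 and 0.06, termination and recycling -0.07 and -0.03, and mitochondrial factors -0.07 and -0.18.

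The pathway genes named here did not pass the threshold in the main fit and were chosen after their values were seen. With the replicate number as a block some passed, among them Deptor in mRNA libraries (edgeR adjusted p = 5.04e-06), where that fit called 16.8% of all genes. In total RNA libraries Deptor did not pass with the block (edgeR adjusted p = 0.122). In the mRNA libraries Deptor, an inhibitor of mTOR, stood at 62.3 and 78.5 CPM in WT against 111 and 152 CPM in Mut-labelled libraries, 0.89 on the log2 scale (SE 0.20, edgeR adjusted p = 0.0843). In total RNA libraries Deptor had 0.50 in the main fit (edgeR adjusted p = 0.239). Mknk1 and Mknk2, the kinases that phosphorylate eIF4E, had 0.59 and 0.47 in mRNA libraries (edgeR adjusted p = 0.114 and 0.185). In total RNA libraries they had 0.64 and 0.50 (edgeR adjusted p = 0.214 and 0.0833). Deptor, Mknk1 and Mknk2 lay above WT in both Mut-labelled libraries of either kind. So did 21.7% of all genes in each kind taken alone. In the total RNA libraries Pdcd4, which inhibits the helicase eIF4A, stood at 152 and 177 CPM in WT against 241 and 237 CPM in Mut-labelled libraries (0.55, SE 0.16, edgeR adjusted p = 0.0702). Wars, the tryptophan-tRNA synthetase, stood at 118 and 117 against 77.4 and 70.9 CPM there (-0.66, SE 0.19, edgeR adjusted p = 0.0673). Other pathway genes lay further from the threshold than Deptor in mRNA libraries and Pdcd4 and Wars in total RNA libraries. They lay nearer to it than Mknk2 in mRNA and Mknk1 in total RNA libraries. In mRNA libraries these were Pabpc4, a paralog of Pabpc1 (-0.46, edgeR adjusted p = 0.154), and Gspt2, a termination factor (-0.76, edgeR adjusted p = 0.173). In total RNA libraries they were Mcts1, a reinitiation factor (1.35, edgeR adjusted p = 0.116), Eif2ak2, an eIF2 kinase (0.72, edgeR adjusted p = 0.169), and Rars, the arginine-tRNA synthetase (-0.60, edgeR adjusted p = 0.19). Under ERCC scaling Deptor, Mknk1 and Mknk2 stood at 0.56, 0.26 and 0.10 in mRNA libraries and turned to -0.58, -0.41 and -0.57 in total RNA libraries, where Pdcd4 turned to -0.52.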

How the data were processed

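The deposited table holds raw gene counts, whole numbers not normalised by the authors, 1 column for each library. TopHat, featureCounts, edgeR and build mm9 are named per the submitters' processing notes. Not given in the sources used here are their versions, the annotation release and how strand and multiply mapped reads were treated. Of 38086 entries, 92 ERCC and 3 rRNA entries were left out of library sizes and tests. Symbols, exon lengths, transcripts and overlaps came from GENCODE M21 (32919 identifiers matched) and start windows from RefSeq (GRCm38.p6).

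Each kind of library was fitted alone to compare groups, with edgeR 4.0.16 (R 4.3.3, limma 3.58.1), with TMM scaling, edgeR's filter on low counts, a two-sided quasi-likelihood test and Benjamini-Hochberg adjustment over all genes, called under 0.05. Library kinds and the interaction were fitted over all 8 libraries. ERCC scaling, DESeq2 1.42.0 and its size factors, no filter, a replicate block, leaving out each library and, chosen after seeing the data, adding pseudogene counts were alternatives. The script was tested on simulated data. Libraries of a group differed beyond sampling noise (chi-square per degree of freedom 56.1 in WT and 53.9 in Mut-labelled mRNA, 2.52 and 2.15 in total RNA libraries), so that none was a repeated deposit. Floors cover counting error only.

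The members and lists were chosen with earlier results of these data known. Values per library are given in full for members at an unadjusted p under 0.05 (there were 0), for the 5 largest positive and 5 largest negative log2 fold changes in mRNA libraries and for the member with the most counts in each role; Eif4g1, Eif4g2, Eif5a and Eef1a1 were added after their values were seen. Of pathway genes, those called were to be named (0). Of the marker lists, stem cell and early progenitor genes summed to 2909 to 3450.3 CPM in mRNA libraries, macrophage and dendritic cell genes to 71.9 to 120.3 and stromal and endothelial genes to 169 to 261.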

Additional observations from a re-analysis of the deposited data

How the results depend on the processing

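The members' calls were 0 of 33 in both comparisons of the groups under TMM, ERCC scaling, DESeq2's size factors, the DESeq2 test, no filter, added pseudogene copies and without any 1 library; without a library, 1 group is a single sample, assumed to vary like the other group. The median of the members was not firm in sign in the mRNA libraries. Without 1 library it ran from -0.15 to 0.04, negative when WT replicate 2 or Mut-labelled replicate 1 was left out and positive when WT replicate 1 (0.04) or Mut-labelled replicate 2 (0.01) was. In total RNA libraries it ran from -0.17 (WT replicate 2 left out) to -0.043 (Mut-labelled replicate 2 left out). Genes called ranged from 602 to 815 (main value 624) in mRNA and from 381 to 598 (main value 446) in total RNA libraries. With ERCC scaling 170 genes were called in mRNA libraries, and the members' medians were -0.42 and -1.17. DESeq2 called 1491 and 159 genes, and 724 genes were called in total RNA libraries with no filter. Between the kinds of library, ERCC scaling left 0 members and 254 genes called, against 10 and 3001. The Mut-labelled to WT ratio of members per rRNA count was 1.003, and 0.45 per ERCC count.

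Replicate numbers were shared between the groups, but the labels do not say what they mark, and with 2 pairs they were not taken as pairs. The difference between replicates 1 and 2 in WT correlated across genes with that in Mut-labelled libraries at 0.451 in mRNA and 0.227 in total RNA libraries. Over genes of at least 100 CPM this correlation was 0.817 and 0.358, and over the members 0.808 and -0.003. Genes are not independent replicates. With the replicate number as a block, 2870 genes were called in mRNA libraries, 16.8% of those tested, among them 2 members, Eif3g (-0.31, edgeR adjusted p = 0.0156) and Eif3i (-0.26, edgeR adjusted p = 0.0297). In total RNA libraries the block called 870 genes, 8.25%, and 0 members. Of the further pathway genes it called 12 in mRNA (6 higher, among them Deptor, edgeR adjusted p = 5.04e-06, and 6 lower) and 4 in total RNA libraries (3 higher and 1 lower, Wars, edgeR adjusted p = 0.0125). With the sorted sample as a replicate block, 18 members and 4978 genes were called between the kinds of library, and 111 genes and 0 members in the interaction.

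Signs of the small differences depended on scaling and single libraries. With ERCC scaling all 12 members positive in mRNA and all 8 positive in total RNA libraries turned negative. Among the members given in full by the rule these were, in mRNA libraries, Eif3f (-0.32), Pabpc1 (-0.30), Eif1 (-0.30), Eif3h (-0.25), Eif5b (-0.17), Eif5 (-0.33) and Eef2 (-0.33), and in total RNA libraries Eif4e (-1.04), Pabpc1 (-1.05) and Eif5b (-1.03). Without WT replicate 1, 23 members were positive in mRNA libraries, and 20 without Mut-labelled replicate 2; in total RNA libraries 15 were without WT replicate 1 and 4 without WT replicate 2. Among the members given in full by the rule, leaving out 1 library in turn gave ranges that crossed 0 in mRNA libraries for Eef1d (-0.47 to 0.010), Eif3f (-0.056 to 0.16), Eif5 (-0.016 to 0.078) and Eif3a (-0.039 to 0.026). In total RNA libraries it did so for Eif3g (-0.49 to 0.011), Eif4e (-0.42 without WT replicate 2 to 0.97 without WT replicate 1), Eif3i (-0.45 to 0.0086), Pabpc1 (-0.030 to 0.088), Eif3h (-0.12 to 0.020), Eif5b (-0.12 to 0.44) and Eef2 (-0.049 to 0.019). The cause was not tested. The depth of the total RNA libraries, with 16 to 4844 counts per member and library, limits the values of Eif3m, Eif2s3x, Eif2s2 and Eif4e most.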
